A study of Homo sapiens with 2 samples.

Results

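The chromobox genes examined here encode the HP1 proteins (CBX1, CBX3 and CBX5) and the chromobox subunits of Polycomb repressive complex 1 (CBX2, CBX6, CBX7 and CBX8). Of these 7 genes, 6 had probe sets annotated to that symbol alone, 18 probe sets in all out of 41091 single-symbol probe sets on the array. No probe set was annotated to CBX8, which was not analysed here, and none was annotated to a chromobox gene together with another symbol. The genes were chosen with their ratios known, because CBX5 and CBX6 were among the lowest on the array. That the CBX5 probe sets disagree was also known. The ratios and their spread below therefore describe these arrays and support no test.

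Chromobox proteins carry a chromodomain, a small fold that binds methylated lysines on the tail of histone H3. HP1 proteins read methylated lysine 9, join in pairs through a second domain, the chromoshadow domain, and hold heterochromatin compact around centromeres and silent repeats. The Polycomb chromobox proteins bring repressive complex 1 to chromatin, most of them by reading methylated lysine 27, a mark that repressive complex 2 writes. Those forms of complex 1 that contain a chromobox subunit hold a single one at a time.

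Seg-1 cells, a human line that per the labels is the lung adenocarcinoma line H460, were transfected with siRNA directed at FGF-AS, an RNA transcribed antisense to FGF2, or with a negative control siRNA without homology to known genes. Both cultures were harvested after 72 hours, at siRNA concentrations that the protocol gives only as 25 to 200 nM, and no untransfected culture was among the samples. Each group held 1 Affymetrix U133 Plus 2.0 array, and without replicates no p-value can be given. The line stands for 1 tumour, and the arrays report RNA, not protein.

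Signals are the deposited linear MAS5 intensities, which summarise the short probes of a probe set into 1 value per array. The log2 ratio of FGF-AS siRNA over control was taken after adding 6.1, the 25th percentile of all signals, to each signal, which understates the change of dim probe sets. A probe set counted as measured when its mean signal over both arrays reached 23.9, the median of such means, and as bright at 145.2 or more, the 75th percentile. The SD of the log2 ratio, taken from the disagreement between probe sets of the same gene, was 0.36 among bright probe sets (3050 genes) and 0.58 among dimmer ones (2365 genes). It covers neither differences between cultures nor between hybridisations. NUDT6, the gene that gives rise to FGF-AS, read 376.9 with control and 104.5 with FGF-AS siRNA on 230329_s_at, and 267 and 77.8 on 220183_s_at. Of the lung epithelium markers, 4 of 7 were measured and all were dim (SFTPB highest, at 110.8 and 98), and NKX2-1, a defining lung lineage factor, was below the minimum (24.9 and 11.8). Of the general epithelial markers, 5 of 6 were measured, with KRT18 at 10152.5 and 9327.2, while CDH1 was below the minimum (0.9 and 18.4). Of the fibroblast markers 3 of 6 were measured, COL3A1 at 316.4 and 104.6, COL1A1 at 164.3 and 151.6 and DCN at 42.5 and 31, while COL1A2 (6.4 and 17.9), PDGFRB (7.3 and 28.8) and LUM were below the minimum. Of the 5 leukocyte markers with a probe set, CD3E (33.5 and 52.7) and CD14 (38.3 and 16.8) were measured and dim, and the defining marker PTPRC (0.5 and 19) was below the minimum. Of 5 endothelial markers only PECAM1 was measured (43.2 and 55.7).

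The 2 genes with the lowest ratios, CBX5 and CBX6, are shown by the sequence before their transcription starts. RefSeq places CBX5 starts far apart, 20536 bases between the first window and the next. Probe sets of both genes disagreed, and whether the choice of start bears on that was not tested. The sequences are the 250 bases before the annotated start, from RefSeq on GRCh38.p14, 5′ to 3′ on the strand of the gene. Capitals mark matches to CACGTG, the E-box, and to TGCGCA, the half-site of NRF1. Both motifs read the same on both strands.
CBX5, first start, chr12:54280123-54280372, minus strand: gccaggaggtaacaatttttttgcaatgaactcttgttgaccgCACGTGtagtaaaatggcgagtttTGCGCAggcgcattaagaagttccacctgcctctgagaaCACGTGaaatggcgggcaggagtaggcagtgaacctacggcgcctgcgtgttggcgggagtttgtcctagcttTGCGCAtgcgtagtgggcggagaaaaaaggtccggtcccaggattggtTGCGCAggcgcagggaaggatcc
CBX5, inner start, chr12:54259587-54259836, minus strand: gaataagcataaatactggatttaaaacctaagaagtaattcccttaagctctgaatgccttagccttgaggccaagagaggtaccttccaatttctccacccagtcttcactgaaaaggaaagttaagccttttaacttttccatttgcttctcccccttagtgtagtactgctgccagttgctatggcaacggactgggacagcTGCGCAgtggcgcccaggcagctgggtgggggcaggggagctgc
CBX6, chr22:38872217-38872466, minus strand: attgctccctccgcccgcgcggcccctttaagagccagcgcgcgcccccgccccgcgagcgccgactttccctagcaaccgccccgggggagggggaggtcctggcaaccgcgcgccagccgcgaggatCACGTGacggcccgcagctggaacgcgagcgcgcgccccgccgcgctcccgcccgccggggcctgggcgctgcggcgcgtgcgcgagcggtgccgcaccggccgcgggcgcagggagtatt

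The first CBX5 window held 2 E-boxes, 207 and 144 bases before the start, and 4 NRF1 half-sites, of which the 3 shown begin 183, 71 and 23 bases before it. The inner window shown held 1 NRF1 half-site and no E-box, and the CBX6 window held 1 E-box, 121 bases before the start, and no NRF1 half-site. Over all 35116 RefSeq windows of 300 bases (the 250 before and the 50 after a start), 7.26% held an E-box and 8.24% an NRF1 half-site. No E-box occurred in the windows of CBX1, CBX3 and CBX7, and of these only the CBX7 window held an NRF1 half-site. TTTGGCG, a core of E2F sites that was searched on both strands and was present in 1.92% of windows, overlapped the start of CBX3 and lay 2 bases after the first CBX5 start. The window GC content was 57.3% for the first CBX5 start and 52.7% for the inner one shown, against 76.7% for CBX6 and a median of 58.7% over all windows. CBX2 had no window in the table. A letter match is a description of the sequence, and binding at these places was not measured.

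Of the 18 chromobox probe sets, 17 were measured and 12 were bright. Among the measured ones, 4 had a signal at least 2-fold lower on the FGF-AS siRNA array, against 5.33% of all 23222 measured single-symbol probe sets, and 1 was at least 2-fold higher, against 1.94%. All 4 lower ones were bright, the CBX5 probe sets 231862_at and 234990_at only through the control array. Of the 12241 bright probe sets, 2.57% were that much lower. Since the genes were chosen on these ratios, nothing is read from the excess. The 4 came from CBX5 (3 probe sets) and CBX6 (1), and 10 of the 17 differed by less than 1.5-fold. The balance of higher and lower probe sets depended on scaling: 26.7% of all measured probe sets past 2-fold were higher in the deposited values, and 41.6% after quantile normalization. Just inside the signal minimum lay the CBX3 probe set 230998_at (mean 25.7) and the CBX7 probe set (mean 27.8), and outside it lay the CBX2 probe set 224138_at (mean 9.75).

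**Figure D1:**
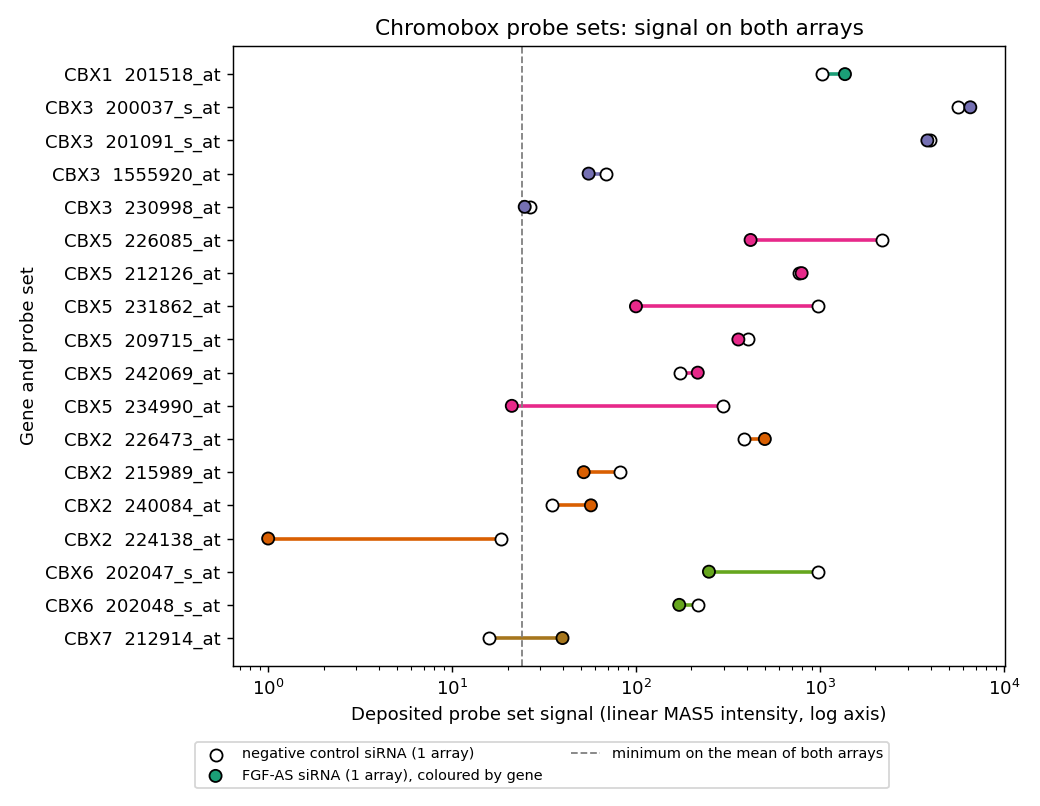
Deposited signal of each of the 18 chromobox probe sets (rows, HP1 genes first) on a log axis, with the open circle for negative control siRNA and the filled circle for FGF-AS siRNA, 1 array each, and the dashed line at the minimum of 23.9. The long bars are those of 3 CBX5 probe sets, 1 CBX6 probe set and the dim CBX2 probe set 224138_at, while the other 3 CBX5 probe sets have nearly coincident circles.

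CBX5, which encodes HP1 alpha, the form most closely tied to centromeric heterochromatin, had 6 probe sets, all bright, whose ratios fell into 2 separate groups of 3. Its brightest probe set, 226085_at, read 2168 on the control array and 419 on the FGF-AS siRNA array, a log2 ratio of -2.36 (19.3% of control). Probe set 231862_at read 970.8 and 99.8, a log2 ratio of -3.21 (10.3% of control). Probe set 234990_at read 297 and 21.1, a log2 ratio of -3.48 (7.10% of control). On these 3 probe sets the FGF-AS siRNA array was far below the control array. For 226085_at, bright on both arrays, the difference was 6.59 times the probe set SD of 0.36. Probe sets 231862_at and 234990_at reached the bright cut of 145.2 only through the control array, so that SD may be too small for them. The FGF-AS siRNA signal of 234990_at was under the minimum of 23.9.

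The other 3 CBX5 probe sets differed by less than 1.5-fold between the arrays. Probe set 212126_at read 768.1 with control and 793.7 with FGF-AS siRNA, a log2 ratio of 0.05. Probe set 209715_at read 404.2 and 359.6, a log2 ratio of -0.17. Probe set 242069_at read 172.2 and 216.3, a log2 ratio of 0.32. Each of these ratios was smaller than the probe set SD, and no CBX5 probe set lay between the groups, since the gap ran from -2.36 to -0.17.

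Whether CBX5 RNA was lower therefore depended on the probe set. By rank among the 23222 measured probe sets, 234990_at was 7th from the lowest ratio, 231862_at 10th and 226085_at 77th, whereas 212126_at was 14173rd. The mean over all 6 probe sets was -1.47, a value that no single probe set showed. Signal did not separate the groups, because 212126_at (mean 780.9) was brighter than 231862_at (mean 535.3), and 242069_at (194.3) was close to 234990_at (159.1). The probe sets could not be placed on CBX5 transcripts from the files used here, so which exons or ends each of them reads was not tested.

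**Figure D2:**
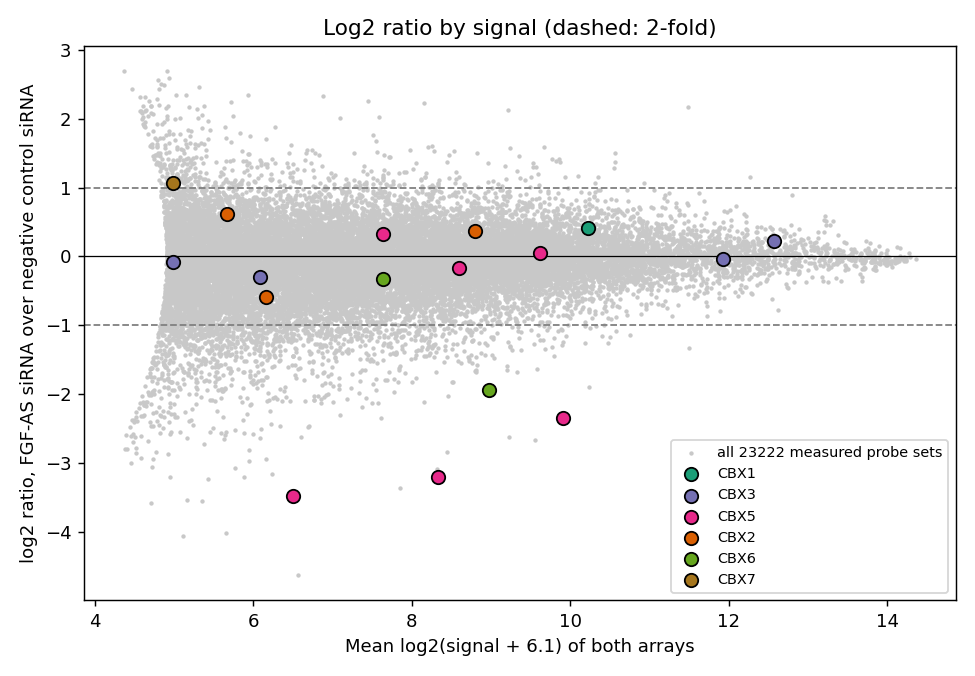
Log2 ratio of FGF-AS siRNA over negative control siRNA (vertical) against the mean log2(signal + 6.1) of both arrays (horizontal) for 23222 measured probe sets in grey and the chromobox probe sets in colour, dashed lines at 2-fold. The lower CBX5 points (-3.48 to -2.36) rank 7th, 10th and 77th from the lowest ratio, and the lower CBX6 point (-1.95) ranks 174th. The remaining coloured points lie within the grey cloud.

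A spread this wide within a gene was uncommon on these arrays. From the highest to the lowest of its 6 ratios CBX5 spanned 3.80 on the log2 scale. Among the 454 genes with 5 or more measured probe sets the median span was 1.02 and the 95th percentile 2.55, and CBX5 was second after AKT2, at 3.93. Among the 77 genes with 5 or more bright probe sets CBX5 had the widest span, against a median of 0.69. Its lowest ratio there came from 234990_at, bright only through the control array. The split itself, with at least 3 probe sets lower past 2-fold and at least 3 within 1.5-fold, occurred in 7 of the 454 genes. The others were AFF4, CELF1, G3BP1, GNA11, MALAT1 and PDE4D. Genes with exactly 5 measured probe sets could not show such a split, so 7 of 454 does not say how rare it was. That way of counting was chosen after the CBX5 values were seen. Since the disagreement was known when the genes were chosen, nothing is read from the ranks of the span either.

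**Figure D3:**
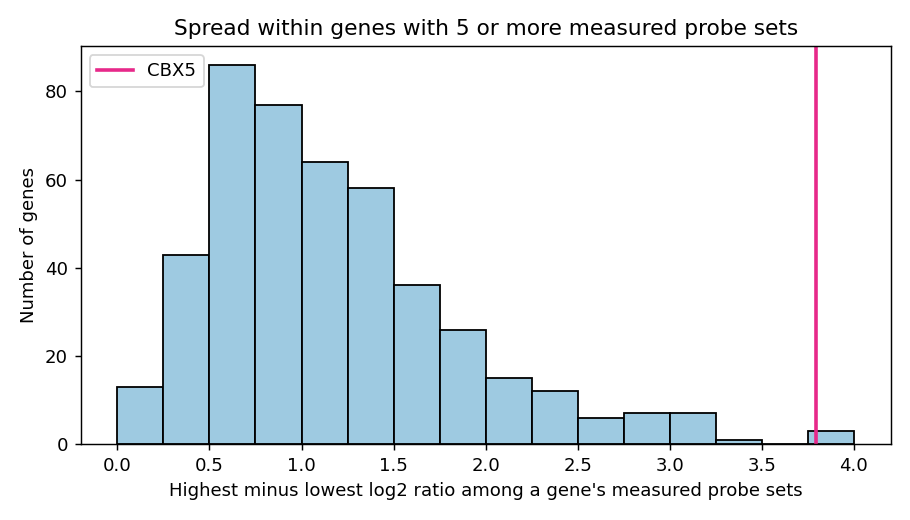
Histogram of the highest minus the lowest log2 ratio among the measured probe sets of a gene (horizontal) for the 454 genes with 5 or more of them, with the number of genes on the vertical axis. The vertical line marks CBX5 at 3.80, in the far right tail beyond the 95th percentile of 2.55.

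CBX1, which encodes HP1 beta, had a single probe set, 201518_at, which was brighter on the FGF-AS siRNA array. It read 1027.1 on the control array and 1365.2 on the other, a ratio of 0.41 on the log2 scale (1.33-fold), little more than the probe set SD. The ratio lay above 86.6% of measured probe sets.

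CBX3, which encodes HP1 gamma, the form also found on active genes, was among the brighter genes on both arrays and differed little between them. The brightest, 200037_s_at, read 5603.6 with control and 6554.4 with FGF-AS siRNA, and its log2 ratio was 0.23. For 201091_s_at the signals were 3946.3 and 3829 and the log2 ratio was -0.04. The dim 1555920_at (69 and 55.2) and 230998_at (26.6 and 24.8) gave -0.29 and -0.08. All 4 ratios were smaller than the SD for their brightness, so no difference in CBX3 RNA was resolved. The 4 CBX3 ratios spanned 0.52, against 3.80 for CBX5.

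Among the Polycomb members, CBX6 had the lowest ratio. It encodes a less studied chromobox subunit of repressive complex 1. Probe set 202047_s_at read 976.9 on the control array and 248.8 on the FGF-AS siRNA array (25.5% of control). Its log2 ratio was -1.95, 5.45 times the probe set SD. Probe set 202048_s_at read 217.9 and 171.5 (78.7% of control), and its log2 ratio of -0.33 was just under the SD. Both were bright and both were lower, but the sizes differed by 1.61 on the log2 scale. By its brightest probe set CBX6 was 40th from the lowest ratio among 12352 measured genes, and CBX5 was 15th. Both CBX6 probe sets end in _s_at, the suffix for probes that can match more than one transcript.

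CBX2, a subunit that can compact chromatin by itself, gave ratios of both signs. Its brightest probe set, 226473_at, read 385.3 on the control array and 500.8 on the FGF-AS siRNA array, 1.30-fold more (log2 ratio 0.37). The dim 240084_at read 34.9 and 56.8 (0.62), and the dim 215989_at read 81.6 and 51.9 (-0.60). Each of the 3 was slightly larger than the SD for its brightness. The probe set below the minimum, 224138_at, read 18.5 and 1, values too close to the bottom of the signal range for a fold.

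CBX7, the subunit best known for silencing the INK4a/ARF locus, was dim on its only probe set. Probe set 212914_at read 15.8 on the control array and 39.8 with FGF-AS siRNA, a log2 ratio of 1.07. It was the only measured chromobox probe set past 2-fold upward, and the control signal was under the minimum. The ratio was 1.83 times the SD for dim probe sets, and it dropped to 0.68 when an offset of 24.3 was used. CDKN2A and CDKN2B, the genes of that locus, were below the minimum (35.5 and 6.9 for CDKN2A, 6.9 and 1.7 for CDKN2B).

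Neighbouring genes were examined because CBX5 and CBX3 lie head to head with genes of nuclear RNA-binding proteins. HNRNPA1, next to CBX5, read 2226 with control and 1724.8 with FGF-AS siRNA on its brightest probe set, a log2 ratio of -0.37, and 0.07 and 0.23 on its dimmer ones. SMUG1, a DNA repair glycosylase gene on the other side of CBX5, read 551.8 and 367.2 (-0.58), and its second probe set gave -0.65. None of these reached the size seen on the lower CBX5 probe sets. HNRNPA2B1, next to CBX3, read 8100.5 and 9015.2 (0.15), and SNX10, a sorting nexin gene on the other side, read 334.2 and 401.6 (0.26). Beside CBX1, NFE2L1, a transcription factor gene, had a ratio of 0.23 and SNX11 of -0.06. NPTXR, a neuronal pentraxin receptor gene beside CBX6, was dim at 39.5 and 34.7 (-0.16). No measured neighbour was past 2-fold.

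The genes nearest to CBX5 in log2 signal on both arrays, by Euclidean distance over these 2 values, were FOLR1 (2335.8 and 620.8, distance 0.57), CCN2 (1452.2 and 530.2, distance 0.67) and LETMD1 (1299.7 and 507.9, distance 0.78). Nearest to CBX6 were TXNIP (784.1 and 244.2, distance 0.32), CARNMT1 (774.3 and 256.1, distance 0.34) and GCFC2 (840.5 and 307.8, distance 0.37). With 2 arrays such likeness says only that the signals were alike. All 3 measured probe sets of TXNIP were past 2-fold lower, from -2.12 to -1.27, and both of CARNMT1 were (-2.10 and -1.57), whereas GCFC2 split much as CBX6 did (-1.43 and -0.20).

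In the lists of other HP1 and Polycomb system genes each gene was represented by its brightest probe set, and on that basis none had a ratio as low as CBX5 (-2.36) or CBX6 (-1.95). Single dimmer probe sets did, with lowest ratios of -2.81 for CHD6, -2.60 for EHMT2, -2.40 for CHD7 and -2.05 for EZH1. Of all 12352 measured genes, 2.72% were at least 2-fold lower and 2.05% at least 2-fold higher, with a median log2 ratio of -0.02 and 48.1% above 0.

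Of 24 genes for HP1 partners and for the enzymes that write lysine 9 methylation, all were measured, with 15 above 0, 9 below and a median of 0.12. DNMT1, the maintenance DNA methyltransferase, was the only member at least 2-fold higher, with 649.6 on the control array, 1456.2 on the FGF-AS siRNA array (1.16) and no second measured probe set. CHAF1B and CHAF1A, subunits of the chromatin assembly factor that binds HP1 at replication forks, had ratios of 0.62 and 0.59. All 3 CHAF1A probe sets were above 0, from 0.42 to 0.90. INCENP, a chromosomal passenger protein that binds HP1, was the only member at least 2-fold lower on its brightest probe set (-1.47), and it was dim (41.4 and 11). EHMT1 and SETDB1, lysine 9 methyltransferases, had ratios of -0.33 and -0.24, and the dimmer EHMT1 probe sets gave -1.23 and -1.07. SUV39H1, the methyltransferase whose product HP1 reads, read 250.2 and 358 (0.51), chosen after its value was seen. The second measured EHMT2 probe set gave -2.60 against 0.26 on the brightest, also named after its values were seen. The median of this list turned to -0.09 with the mean over probe sets and to -0.02 when the _s_at and _x_at probe sets were dropped.

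Of 23 listed other subunits and partners of repressive complex 1, 21 had a probe set, all measured. On its brightest probe set none was past 1.5-fold in either direction, while single dimmer ones reached 0.74 for PHC3 and -0.68 for YAF2. Their median was -0.09, with 8 above 0 and 13 below. The highest were BCORL1 (0.55), a corepressor, and PCGF6 (0.50) and PCGF1 (0.31), which are Polycomb ring finger subunits of variant complexes. The lowest were SCML2 (-0.54), AUTS2 (-0.42) and SCML1 (-0.41). The median was 0.04 with the mean over probe sets, where 13 were above 0, and 0.09 without _s_at and _x_at probe sets.

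All 13 genes of repressive complex 2, which writes lysine 27 methylation, were measured, and none was past 2-fold on its brightest probe set. The median was -0.10, with 5 above 0 and 8 below. PHF1, MTF2 and LCOR, accessory subunits or partners of that complex, were higher at 0.91, 0.78 and 0.61. For MTF2 all 5 probe sets were above 0, from 0.39 (222.4 and 294) to 1.28 (54 and 139.4), and for PHF1 both were, at 0.91 (217.1 and 412) and 1.49 (30.3 and 95.9). EZH1, an enzymatic subunit, was lowest at -0.59 (162.5 and 105.8), and its 4 probe sets ran from -2.05 to -0.20. JARID2, an accessory subunit, read 350.2 and 246.2 (-0.50), and its second probe set gave -0.42. RBBP4, a histone-binding subunit, had a ratio of -0.31 and 6 probe sets that ran from -1.40 to 0.10. Between these ends lay -0.82, -0.53, -0.31 and 0.03, without a wide gap like that of CBX5.

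Among 11 of 12 demethylases of lysines 9 and 27 that were measured, 4 were above 0, and the median was -0.14. PHF8 (0.64), KDM1A (0.52) and PHF2 (0.38) were highest, and KDM3A (-0.37), KDM6A (-0.28) and KDM7A (-0.23) lowest. None was past 2-fold on its brightest probe set. The 3 probe sets of KDM6A, a lysine 27 demethylase, ran from -1.40 to -0.28, and the dimmer KDM7A probe set gave -1.12.

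Of 15 measured genes for other chromodomain proteins, 10 were above 0 and none was past 2-fold on its brightest probe set, with a median of 0.21. CHD6 (0.59), CDYL2 (0.52) and CHD2 (0.35) were highest, and CHD7 (-0.36), SMARCC1 (-0.36) and MORF4L1 (-0.23) lowest. Dim probe sets disagreed here too, as on CHD6, where 1555463_a_at read 49.1 and 1.8, and on CHD7, where 222755_s_at read 57.1 and 5.9. On SMARCC1, 201072_s_at read 291.2 and 128.3 (-1.15). With the mean over probe sets 6 genes were above 0 and the median was -0.08.

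Textbook targets of Polycomb silencing, most of them HOX genes, were mostly dim. Of 36 listed, 27 had a probe set and 18 were measured, with 7 above 0, 10 below and HOXB5 at exactly 0. The median was -0.05, and none was past 2-fold. CCND2, a G1 cyclin gene, was highest at 0.80 but dim (16 and 32.4), followed by HOXC6 (217.2 and 314.8, 0.52) and HOXC9 (0.37). HOXB3 (-0.60), HOXB2 (-0.55) and HOXC4 (-0.48) were lowest, all dim.

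**Figure D4:**
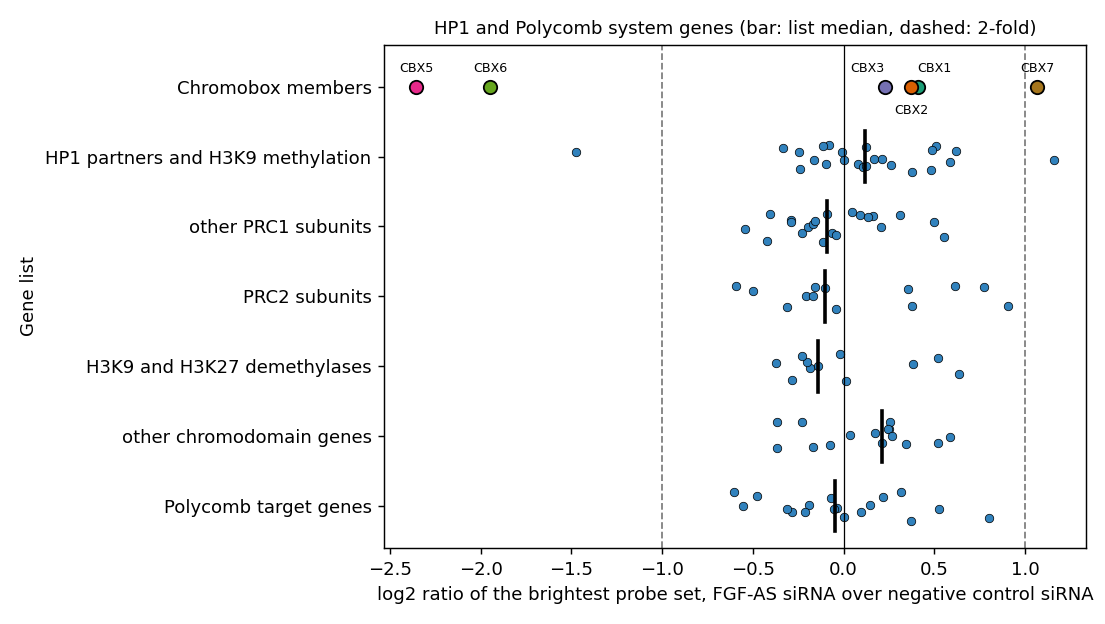
Log2 ratio of the brightest probe set (horizontal) of each measured gene, 1 point per gene with vertical jitter only, for the chromobox members and the 6 lists of HP1 and Polycomb system genes, with bars at list medians and dashed lines at 2-fold. List medians lie between -0.14 and 0.21, and CBX5 (-2.36) and CBX6 (-1.95) stand to the left of every listed gene, INCENP (-1.47) included.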

How the data were processed

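The authors deposited linear probe set intensity values for 2 arrays; GCOS and MAS5 appear in the submitters' processing notes without version, role or scaling target. Deposited intensities reached 21359.6 (control) and 20791.3 (FGF-AS siRNA), with medians of 25.5 and 23.1. No detection calls were used, so dim signals may be background, and the number of arrays limits the precision. Of 54613 probe sets other than 62 Affymetrix controls, 41091 had 1 gene symbol in the platform annotation, 1801 several and 11721 none. Gene identifiers were matched to RefSeq (GRCh38.p14) for current symbols, which held 41037 of them and changed none. Log2 ratios, the minimum and the SD between probe sets were computed in Python 3.11.15 (pandas 2.3.3, statsmodels 0.14.6), and the procedure was tested on simulated data. Members and gene lists were chosen with earlier results of these data known. Named genes were all member probe sets, 3 genes at either end of each list, adjacent genes, NUDT6 and the 3 genes nearest to CBX5 and to CBX6. Promoter windows, which 5 of the 7 genes had, came from RefSeq. Alternatives were other offsets, scalings (median, quantile, loess), minima and choices of probe set.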

Additional observations from a re-analysis of the deposited data

How the results depend on the processing

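With 1 array per group no replicate could be left out and no paired analysis was possible. A value counted as moved when it shifted by the probe set SD or more, or by over 1.5 times for a count; of 752 values recomputed under 9 alternatives 23 moved, and none of the ratios past 2-fold changed sign. CBX5 ran from -2.37 to -1.47 and CBX6 from -1.97 to -1.14, the ends nearest to 0 being the mean over probe sets (-1.473 and -1.141). CBX6 has no value without _s_at and _x_at probe sets, and CBX3 was -0.29 there. CBX7 ran from 0.68 to 1.33, so that the number of chromobox probe sets at least 2-fold higher was 0 with the offset at the median signal and at the stricter minimum, which CBX7 does not reach. The number at least 2-fold lower stayed between 3 and 5. Genes above 0 numbered 8 of the HP1 partners without _s_at and _x_at probe sets, and with the mean over probe sets 13 of the other PRC1 subunits and 6 of the other chromodomain genes. Of the Polycomb targets, 11 were above 0 under quantile normalization and under loess, and 4 without _s_at and _x_at probe sets. At the stricter minimum 1 was, where only HOXB7, HOXC6 and PAX6 remained. Raising the minimum or dropping _s_at and _x_at probe sets removed genes from the lists. Those counts are therefore out of fewer genes, and a lower count there is not by itself a change of direction. The dim signal of 234990_at with FGF-AS siRNA moved its ratio to -2.82 with the larger offset.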
